A study of Homo sapiens with 36 samples.

Results

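The genes described here are 38 markers of neural stem cells, astrocytes, oligodendrocytes and neurons, chosen by name from the 28516 genes of the deposited count table. They comprise 9 stem cell markers, 8 astrocyte markers, 4 markers of the oligodendrocyte lineage and 17 neuronal markers. All 38 are listed in the table, and 35 had the 10 counts over all libraries that testing required. RNA-seq was performed on human neural stem cells (hNSC), a purchased cell line grown on a coated surface, in 6 conditions of 6 libraries each, and cells were collected 48 h after lentiviral transduction. The transcription factors MEIS1 and MEIS2 were raised by CRISPR activation (MEIS1-OE, MEIS2-OE): an inactive Cas9 fused to the activator VP64 (dCas9-VP64) was brought to the promoter by a guide RNA with MS2 loops, to which the activator fusion MPH binds, and these parts came on separate lentiviruses. For knockout (MEIS1-KO, MEIS2-KO) a single vector, lentiCRISPRv2, carried an active Cas9 with the guide RNA, and viruses with different guides against the same gene were mixed. Each system had its own control, ctrl-OE or ctrl-KO, with non-targeting guides. All conditions thus used one line, and each was a mixed population of transduced cells rather than a clone. The labels do not say whether libraries came from separate transductions, so p-values measure the spread between these libraries, which may be technical.

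Neural stem cells in culture divide and keep the ability to form neurons and glia. They are recognised by intermediate filaments such as nestin (NES) and vimentin (VIM), by the RNA-binding Musashi proteins (MSI1, MSI2), and by radial glia proteins such as the fatty acid binding protein FABP7, the receptor tyrosine phosphatase PTPRZ1 and the matrix protein tenascin C (TNC). Young neurons make the microtubule proteins DCX, TUBB3 and STMN2 and later neurofilaments, synaptic vesicle proteins and the nuclear protein RBFOX3. Astrocytes clear glutamate with the transporters SLC1A3 and SLC1A2 and with glutamine synthetase (GLUL), and oligodendrocytes make myelin with MBP and MOG. Many of these genes are shared between the classes, since radial glia also make SLC1A3, GLUL and vimentin.

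Between 15429985 and 22940493 counts on genes were obtained per library. Levels are given as CPM (counts per 1000000 counts of the library, after scaling by edgeR's TMM method), with the lowest, median and highest of the 6 libraries of a condition. The targeted genes followed the labels: MEIS1 was at 17.8 ± 1.10 CPM (SD, n = 6) in ctrl-OE and 310.2 ± 14.3 CPM in MEIS1-OE, and at 25.7 ± 1.66 CPM in ctrl-KO and 8.96 ± 1.74 CPM in MEIS1-KO. MEIS2 was at 22.6 ± 1.23 CPM in ctrl-OE and 824 ± 20.04 CPM in MEIS2-OE, and at 25.8 ± 1.58 CPM in ctrl-KO and 12.1 ± 0.936 CPM in MEIS2-KO. 3 libraries stood apart from the mean of their own condition, MEIS1-OE replicate 3, ctrl-OE replicate 6 and MEIS1-KO replicate 6, at distances of 28.6 to 33.3 on the log2 scale over 13464 genes, whereas the other 33 reached 24.0 at most. Libraries also differed in a trend with the GC content of transcripts, from -0.26 to 0.22 log2 units per 10 percentage points of GC. Counts of markers are therefore also given without these 3 libraries and after adjustment for GC content. A gene was called when the adjusted p of edgeR's quasi-likelihood test, corrected over all 19689 tested genes, was under 0.05. Errors beside log2 fold changes are standard errors.

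Per kilobase of transcript, the stem cell markers VIM, NES and PTPRZ1 were the highest of the set in ctrl-KO. There, VIM reached 1135 ± 48.7 CPM per kb (SD, n = 6), NES 273 ± 25.3 and PTPRZ1 139 ± 7.90, and VIM and NES held the first and second rank in ctrl-OE as well. TNC was the lowest stem cell marker with reads, at 0.410 ± 0.0566 CPM per kb in ctrl-KO. HOPX, a homeobox protein of outer radial glia, had no count in any of 36 libraries, which allows up to 0.131 to 0.194 CPM in a single library when a limit of 3 counts is set.

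The astrocyte markers ranged from well expressed to near the limit of detection. GLUL was the highest at 66.3 ± 1.49 CPM per kb in ctrl-KO, followed by SLC1A3 at 6.59 ± 0.443 and the calcium-binding protein S100B at 3.16 ± 0.394. The water channel AQP4 and the proteoglycan BCAN lay at 0.212 ± 0.0591 and 0.0846 ± 0.0239 CPM per kb. GFAP, the filament of mature and reactive astrocytes, had 0 to 3 counts per library in ctrl-KO and 1 to 8 in ctrl-OE. SLC1A2 had 1 to 5 counts and the folate enzyme ALDH1L1 0 to 3 counts per library in ctrl-KO, so that both were near the limit of detection.

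Of the oligodendrocyte markers, CNP, an enzyme that is abundant in myelin but is also made elsewhere, reached 30.1 ± 2.34 CPM per kb in ctrl-KO, and CSPG4 (NG2), a proteoglycan of progenitors and pericytes, 1.77 ± 0.180. The myelin proteins themselves were nearly absent: MBP had 0 to 4 counts per library and MOG 0 to 1 in ctrl-KO.

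Among the neuronal markers the cytoskeletal proteins led. TUBB3 was at 104 ± 17.0 CPM per kb in ctrl-KO and MAP2 at 78.4 ± 3.78, and the neurofilament genes NEFM, NEFL and INA at 30.7 ± 2.14, 26.7 ± 0.919 and 22.1 ± 0.935. TUBB3 and SYN1 share 21.3% and 24.9% of their exon bases with another annotated gene on the same strand. NEFM and NEFL share 26.4% and 19.8% with one on the opposite strand, as does the stem cell marker VIM with 12.7%. These other genes are not listed by name in the count table, and the effect of the overlaps on the levels was not tested. The vesicle protein synaptophysin (SYP) was at 0.881 ± 0.0625 and DCX, the microtubule protein of migrating neurons, at 0.0984 ± 0.0387 CPM per kb. STMN2 was the lowest tested neuronal marker, with 0 to 6 counts per library in ctrl-KO. The neuronal RNA-binding proteins ELAVL4 and RBFOX3 had no count and 7 counts over all 36 libraries and were not tested. RBFOX3, GFAP, ALDH1L1, MBP and MOG were thus at or near 0, whereas other markers of the same classes were expressed: SYT1 was at 11.1 ± 0.815, SNAP25 at 2.15 ± 0.147, SYN1 at 1.36 ± 0.182 and NEFH at 0.856 ± 0.166 CPM per kb in ctrl-KO. As a further check of the label, SOX2, a transcription factor of neural stem cells, was at 283, 298 and 322 CPM in ctrl-KO and 90.7, 109 and 166 CPM in ctrl-OE. Other transcription factors and signalling genes of neural stem cells went both ways between the controls, as given below.

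**Figure D1:**
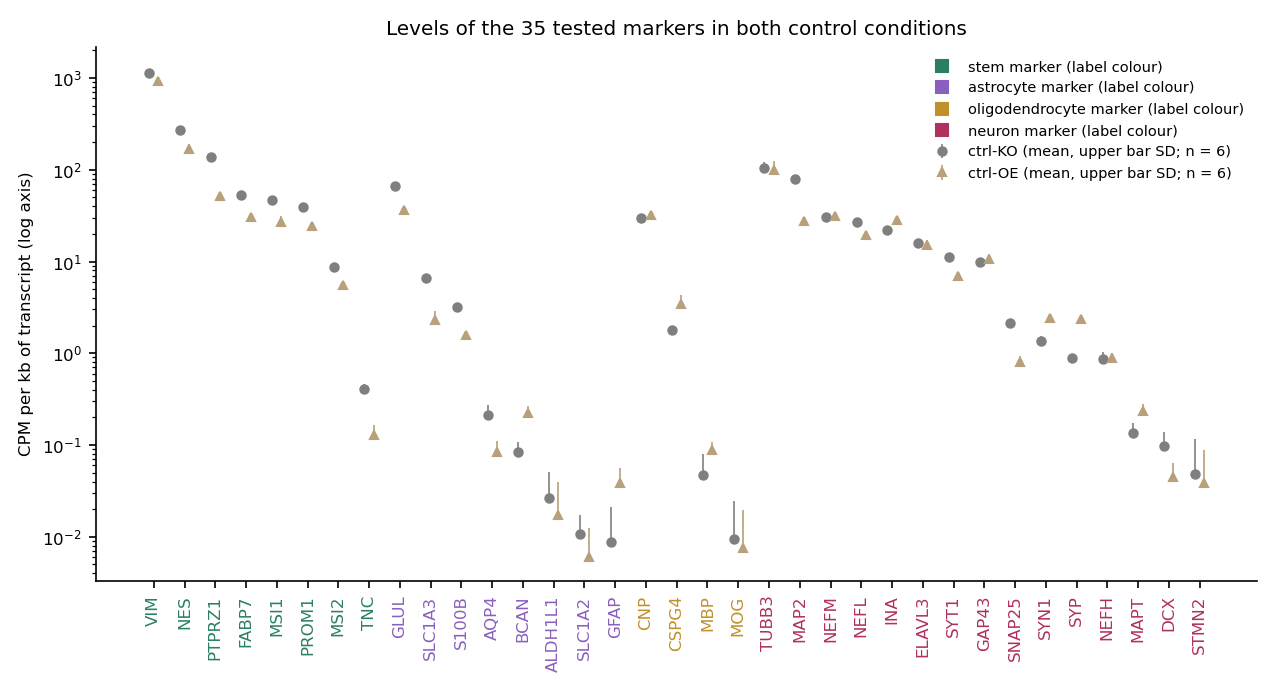
Mean level of each of the 35 tested markers in CPM per kb of transcript (log axis) in ctrl-KO (circles) and ctrl-OE (triangles), 6 libraries each, with the SD drawn upward only and label colours for the 4 marker classes. VIM is the highest in both controls, and GFAP, SLC1A2, ALDH1L1 and MOG lie at the bottom of the glial classes.

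The promoters of the markers were read for a MEIS motif, TGACAG on either strand (CTGTCA where it lies on the other strand), in windows of 250 bases before and 50 bases after the start of the gene from RefSeq (GRCh38.p14, a later build than the one used for counting). The table of promoters held 27 of the 38 markers, and the motif was found in 3 of these (11.1%), FABP7, TNC and ELAVL4, against 5533 of 35116 windows of all genes (15.8%). For the markers only the first window of each gene was read, whereas every window was counted for all genes, so the shares are not strictly alike. The following 3 windows are shown because FABP7 and TNC hold the motif, in capitals, and because PTPRZ1 fell in MEIS1-OE, MEIS2-OE and MEIS2-KO but holds no match. A match is a description of letters only. In FABP7 the motif starts 110 bases before the gene start, and in TNC 16 bases after it. The windows are chr6:122779466-122779765, plus strand, for FABP7, chr9:115118108-115118407, minus strand, for TNC and chr7:121872911-121873210, plus strand, for PTPRZ1, each written 5′ to 3′ on the strand of the gene.
FABP7: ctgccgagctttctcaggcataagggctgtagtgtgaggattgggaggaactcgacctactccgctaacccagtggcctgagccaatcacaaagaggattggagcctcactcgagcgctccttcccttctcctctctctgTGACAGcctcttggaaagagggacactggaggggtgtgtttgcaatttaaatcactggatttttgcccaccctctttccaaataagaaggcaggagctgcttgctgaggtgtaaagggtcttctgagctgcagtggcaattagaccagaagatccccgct
TNC: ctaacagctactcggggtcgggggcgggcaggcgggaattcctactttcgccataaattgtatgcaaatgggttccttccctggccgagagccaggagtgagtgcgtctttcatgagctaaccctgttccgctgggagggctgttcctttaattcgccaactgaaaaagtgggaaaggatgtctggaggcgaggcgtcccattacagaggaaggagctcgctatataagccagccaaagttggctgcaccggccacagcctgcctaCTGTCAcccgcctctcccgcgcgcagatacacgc
PTPRZ1: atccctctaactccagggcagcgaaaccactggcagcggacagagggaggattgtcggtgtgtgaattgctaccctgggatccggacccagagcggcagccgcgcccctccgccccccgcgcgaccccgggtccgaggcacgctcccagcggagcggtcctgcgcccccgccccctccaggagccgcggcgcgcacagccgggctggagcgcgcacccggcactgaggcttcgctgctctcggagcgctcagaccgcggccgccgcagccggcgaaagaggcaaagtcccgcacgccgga

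Neither control targets a gene, so the comparison of both asks how the markers differ between the delivery systems. All 8 tested stem cell markers were lower in ctrl-OE, and of the 35 tested markers 24 were called, 7 higher and 17 lower, in a comparison in which 51.4% of all tested genes were called, 27.5% higher and 23.9% lower. The libraries of 21 markers did not overlap between the controls, against 31.8% of all tested genes. The median log2 fold change was -0.74 for the stem cell markers, -0.83 for the astrocyte markers, 0.51 for the oligodendrocyte markers and -0.07 for the neuronal markers, beside 0.05 for all tested genes. The oligodendrocyte median covers 4 genes, of which only CSPG4 was called. They include MBP and MOG, with at most 7 and 2 counts in a library. The systems differ in the Cas9, in the number of viruses and in the activators, which cannot be told apart here. In bulk samples, fewer cells of a type and less RNA per cell cannot be told apart either.

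TNC, a matrix protein of radial glia, had the most negative fold change of the called markers. Its libraries were at 2.81, 3.71 and 3.91 CPM in ctrl-KO and at 0.558, 1.13 and 1.496 CPM in ctrl-OE (log2 fold change -1.67 ± 0.17, adjusted p = 9.41e-11). PTPRZ1 was at 1047, 1122 and 1201 CPM in ctrl-KO and 365, 414 and 464 CPM in ctrl-OE (log2 fold change -1.44 ± 0.07, adjusted p = 8.24e-20), and for both genes every ctrl-OE library was below every ctrl-KO library. MSI1, FABP7, NES, PROM1 and MSI2 fell by 0.64 to 0.80 on the log2 scale, and VIM by 0.30. PROM1 (CD133) is a surface protein used to isolate neural stem cells.

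In the astrocyte class the changes went both ways. SLC1A3 fell from 24.0, 25.5 and 28.2 CPM in ctrl-KO to 5.77, 9.11 and 12.03 CPM in ctrl-OE (log2 fold change -1.51 ± 0.13, adjusted p = 6.59e-13). GLUL, S100B and AQP4 fell too, with log2 fold changes of -0.86 ± 0.04, -0.98 ± 0.12 and -1.34 ± 0.25. GFAP was called higher (log2 fold change 2.12 ± 0.57, adjusted p = 0.0018), on 0 to 3 counts per library in ctrl-KO and 1 to 8 in ctrl-OE, and the libraries overlapped. It shares 19.9% of its exon bases with CCDC103 on the opposite strand, which was also higher in ctrl-OE (1.08 ± 0.17), and the strand setting of the counting is not given in the sources used here. BCAN, a proteoglycan of the brain matrix, rose from 0.144, 0.292 and 0.367 CPM to 0.540, 0.712 and 0.985 CPM (log2 fold change 1.39 ± 0.26, adjusted p = 1.88e-05) without overlap. Of the oligodendrocyte markers CSPG4 rose, from 12.7, 14.3 and 17.0 CPM to 23.6, 26.7 and 41.7 CPM (log2 fold change 0.97 ± 0.17, adjusted p = 5.27e-06), whereas CNP had a log2 fold change of 0.08 ± 0.08 and was not called.

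The neuronal markers split as well, with 4 called higher and 5 lower. MAP2, a microtubule protein of dendrites, fell from 706, 754 and 812 CPM to 234, 263 and 294 CPM (log2 fold change -1.51 ± 0.07, adjusted p = 3.55e-20). The membrane fusion protein SNAP25 fell by 1.40 on the log2 scale, DCX by 1.14, the calcium sensor of vesicles SYT1 by 0.69 and NEFL by 0.45. SYP rose from 1.97, 2.10 and 2.41 CPM to 4.83, 5.83 and 6.31 CPM (log2 fold change 1.40 ± 0.10, adjusted p = 7.78e-15). SYN1, another vesicle protein, MAPT (tau) and INA rose by 0.81 ± 0.09, 0.79 ± 0.20 and 0.37 ± 0.05. INA shares 13.9% of its exon bases with NT5C2 on the opposite strand, which was lower in ctrl-OE (-0.14 ± 0.04). Transcripts of vesicle proteins thus differed in direction, with SYP and SYN1 higher and SYT1 lower. TUBB3, ELAVL3, NEFM, NEFH, GAP43 and STMN2 were not called.

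**Figure D2:**
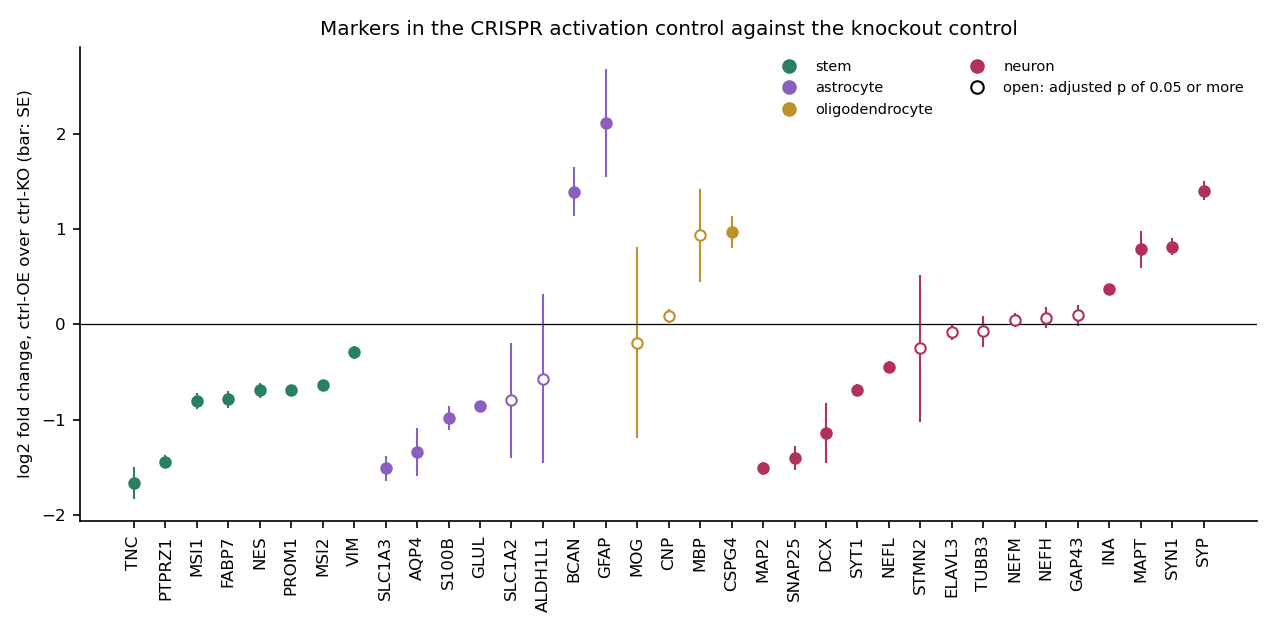
Log2 fold change of the 35 tested markers in ctrl-OE over ctrl-KO by class, with standard errors, open symbols for markers that were not called. All stem cell markers lie below 0, TNC lowest at -1.67, and GFAP is the highest at 2.12.

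For many markers the systems stayed apart whatever the guide. When all 18 OE libraries were set against all 18 KO libraries, 16 of the 35 tested markers had no overlap, compared with 14.7% of all tested genes: 13 were higher in the KO libraries and 3 in the OE libraries. PTPRZ1 ranged from 277 to 464 CPM in the OE libraries and from 926 to 1208 CPM in the KO libraries, and MAP2 from 208 to 302 and from 569 to 818 CPM. The 3 higher in the OE libraries were SYP, SYN1 and INA. VIM, NEFM, GAP43, TUBB3, CNP and CSPG4 were among those that overlapped.

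The overexpression of MEIS1 asks which markers change when this factor is raised in cells that already contain it. NEFM, NEFL, GAP43, SYT1 and BCAN rose, and PTPRZ1, SLC1A3 and PROM1 fell: of the 35 tested markers 8 were called, 5 higher and 3 lower, where 9.10% of all tested genes were called, 5.52% higher and 3.58% lower. The 4 neuronal markers called were all higher, and both stem cell markers called were lower. The libraries of 4 markers did not overlap with the controls, against 4.38% of all tested genes. Medians were 0.03 for the neuronal, 0.03 for the stem cell, 0.21 for the astrocyte and -0.32 for the oligodendrocyte markers, beside -0.0013 for all tested genes. The 5 positive astrocyte values were those of BCAN, GFAP, AQP4, ALDH1L1 and SLC1A2, genes with at most 35 counts in any library. The better counted GLUL, S100B and SLC1A3 had -0.06, -0.37 and -0.50. No oligodendrocyte marker was called, and MBP and MOG had few counts.

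NEFM, the medium neurofilament chain, was at 95.3, 104 and 117 CPM in ctrl-OE and 125, 164 and 188 CPM in MEIS1-OE (log2 fold change 0.64 ± 0.07, adjusted p = 1.97e-08), and no MEIS1-OE library was as low as the highest control. NEFL, the light chain, was at 65.7, 69.1 and 75.1 CPM and 76.6, 84.6 and 94.4 CPM (log2 fold change 0.26 ± 0.06, adjusted p = 0.000868), also without overlap. GAP43, a protein of growing axons, was at 12.8, 16.1 and 18.5 CPM and 17.9, 19.9 and 26.0 CPM (log2 fold change 0.39 ± 0.11, adjusted p = 0.0156), with a small overlap. SYT1, the calcium sensor of vesicle release, rose from 30.4, 32.6 and 34.0 CPM to 35.3, 37.05 and 44.6 CPM (log2 fold change 0.26 ± 0.06, adjusted p = 0.00517) without overlap. The heavy neurofilament chain NEFH and INA were not called, with log2 fold changes of -0.04 ± 0.11 and 0.03 ± 0.05, so the neurofilament genes did not all move.

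PTPRZ1, a phosphatase of radial glia and glial progenitors, was at 365, 414 and 464 CPM in ctrl-OE and 277, 321 and 364 CPM in MEIS1-OE (log2 fold change -0.38 ± 0.07, adjusted p = 0.000107), and every MEIS1-OE library lay below the controls. SLC1A3, the glutamate transporter of radial glia and astrocytes, was at 5.77, 9.11 and 12.03 CPM and 4.95, 6.53 and 7.70 CPM (log2 fold change -0.50 ± 0.14, adjusted p = 0.014), with overlap. PROM1 was at 89.8, 99.1 and 103 CPM and 77.6, 85.1 and 103 CPM (log2 fold change -0.16 ± 0.05, adjusted p = 0.0414), the smallest of these changes. BCAN went the other way, from 0.540, 0.712 and 0.985 CPM to 0.945, 1.15 and 1.49 CPM (log2 fold change 0.71 ± 0.19, adjusted p = 0.0109), on 13 to 21 and 20 to 32 counts per library. With only the groups compared in the fit, SLC1A3 and PROM1 had adjusted p of 0.0735 and 0.121. Without the 3 libraries that stood apart, 13 markers and 18.4% of all tested genes were called, and after GC adjustment 12 markers and 15.7% of all genes. The 13 include TUBB3 (0.61, adjusted p = 0.000224), whose value with all libraries was 0.34 ± 0.16 and whose MEIS1-OE libraries ran from 133 to 240.3 CPM, and MSI1 (0.35, adjusted p = 0.000177).

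**Figure D3:**
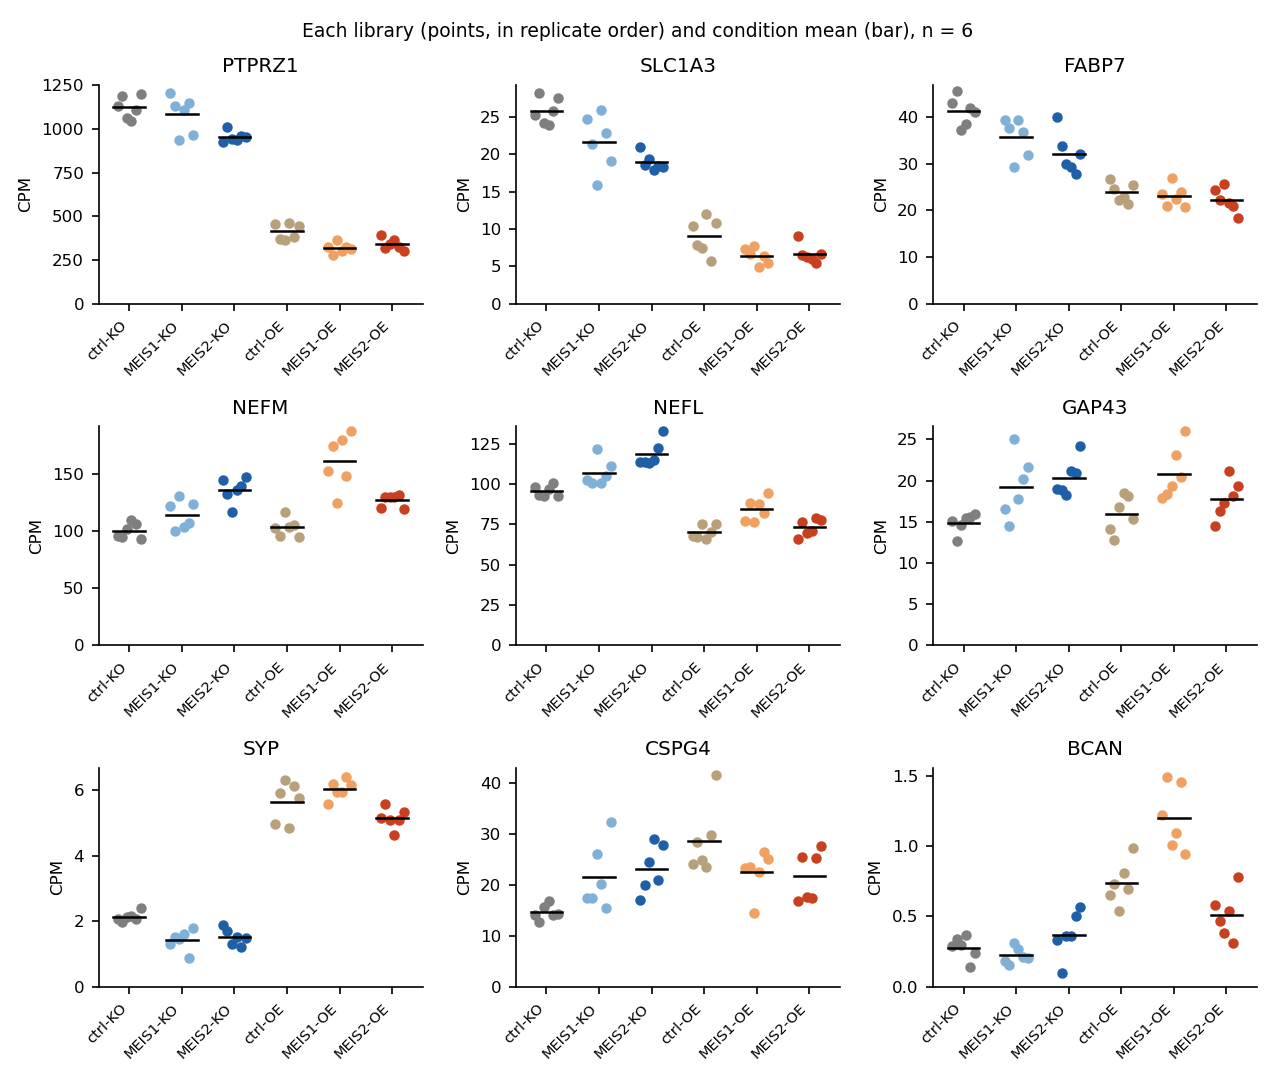
CPM (linear axis from 0) of 9 markers in each library, with points for the 6 libraries of each condition and a bar for their mean. PTPRZ1, SLC1A3 and FABP7 are lower in all OE conditions, NEFM is highest in MEIS1-OE, SYP is lower in both knockouts than in ctrl-KO, and CSPG4 in ctrl-OE holds 1 library at 41.7 CPM.

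With MEIS2 raised, NEFM was higher and PTPRZ1 and GLUL were lower: 3 markers were called, 1 higher and 2 lower, where 1.35% of all tested genes were called, 1.07% higher and 0.279% lower. NEFM rose again, to 119.9, 130.3 and 132 CPM (log2 fold change 0.30 ± 0.07, adjusted p = 0.0238), and was the 1 marker whose libraries did not overlap with the controls, against 1.33% of all tested genes. PTPRZ1 fell to 302, 334 and 392 CPM (log2 fold change -0.28 ± 0.07, adjusted p = 0.0192), and GLUL, glutamine synthetase, fell from 257, 273 and 304 CPM to 233, 244 and 268 CPM (log2 fold change -0.15 ± 0.04, adjusted p = 0.045). Both overlapped with the control libraries. With only the groups compared in the fit, the adjusted p became 0.111 for PTPRZ1 and 0.36 for GLUL, and without the 3 libraries that stood apart GLUL had -0.12 (adjusted p = 0.135). SLC1A3 had a value of -0.44 ± 0.14 (adjusted p = 0.14) and was not called. Both overexpressions share their control libraries, so their values cannot be counted as independent of each other.

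A direct comparison of MEIS1-OE with MEIS2-OE called 4 markers, all higher in MEIS1-OE, where 7.75% of all tested genes were called, 4.93% higher and 2.82% lower. The control libraries enter it only through the shared estimate of the spread, the scaling and the filter. BCAN differed most, with 0.313, 0.501 and 0.782 CPM in MEIS2-OE against 0.945, 1.15 and 1.49 CPM in MEIS1-OE (log2 fold change 1.23 ± 0.21, adjusted p = 3.47e-05), and the libraries did not overlap. NEFM, NEFL and MSI1 were higher by 0.34 ± 0.07 (adjusted p = 0.00116), 0.20 ± 0.06 (adjusted p = 0.0131) and 0.29 ± 0.08 (adjusted p = 0.0192). BCAN and SYP were the 2 markers without overlap, against 4.09% of all tested genes, and SYP was not called (0.23 ± 0.09, adjusted p = 0.118). In the fit of both conditions alone NEFL was not called (adjusted p = 0.0639). PTPRZ1 differed by -0.10 ± 0.07 and SLC1A3 by -0.06 ± 0.14, and neither was called. Without the 3 libraries that stood apart, 9 markers were called, 7 higher and 2 lower, and 15.3% of all tested genes.

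In the knockouts the question was which markers change when MEIS1 or MEIS2 is reduced. In MEIS1-KO SYP fell and VIM rose: 2 markers were called, where 1.46% of all tested genes were called, 1.03% higher and 0.432% lower. SYP, the vesicle protein synaptophysin, fell from 1.97, 2.10 and 2.41 CPM in ctrl-KO to 0.892, 1.49 and 1.80 CPM in MEIS1-KO (log2 fold change -0.57 ± 0.12, adjusted p = 0.012), and all MEIS1-KO libraries were below the controls, on 17 to 35 counts per library. VIM rose from 2305, 2439 and 2569.9 CPM to 2465, 2907 and 3209 CPM (log2 fold change 0.25 ± 0.07, adjusted p = 0.04), with overlap. VIM was not called without the 3 libraries that stood apart (0.22, adjusted p = 0.061), and SYP was not called with only the groups compared in the fit (adjusted p = 0.0822). CSPG4 (0.55 ± 0.17, adjusted p = 0.095) and GAP43 (0.37 ± 0.11, adjusted p = 0.085) were not called. NEFL was not called either (0.16 ± 0.05, adjusted p = 0.161), although it was, with SYP, one of the 2 markers without overlap, against 1.39% of all tested genes. After GC adjustment 5 markers and 4.34% of all tested genes were called, CSPG4 among them (0.47, adjusted p = 9.57e-05).

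In MEIS2-KO CSPG4, GAP43, NEFM, NEFL, VIM and SYN1 rose, and DCX, SYP, SLC1A3, FABP7, PTPRZ1 and PROM1 fell: 12 markers were called, 6 higher and 6 lower, where 10.0% of all tested genes were called, 4.04% higher and 5.98% lower. The libraries of 10 markers did not overlap with ctrl-KO, against 6.44% of all tested genes, and 9 of these were called. Of the 8 tested stem cell markers 3 fell and 1 rose, and of the 15 tested neuronal markers 4 rose and 2 fell. Medians were -0.13 for the stem cell, 0.11 for the neuronal, -0.02 for the astrocyte and 0.22 for the oligodendrocyte markers, beside -0.01 for all tested genes. The oligodendrocyte median again covers 4 genes, with only CSPG4 called and few counts of MBP and MOG.

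FABP7, a lipid carrier of radial glia, was at 37.3, 41.5 and 45.6 CPM in ctrl-KO and 27.8, 31.0 and 40.1 CPM in MEIS2-KO (log2 fold change -0.36 ± 0.08, adjusted p = 0.0045), and 5 of the 6 MEIS2-KO libraries lay below the lowest control. PTPRZ1 was at 926, 947 and 1009.8 CPM (log2 fold change -0.24 ± 0.07, adjusted p = 0.0196) and SLC1A3 at 17.9, 18.5 and 21.0 CPM (log2 fold change -0.45 ± 0.12, adjusted p = 0.0141), both below all ctrl-KO libraries. PROM1 fell from 151, 155 and 169 CPM to 134, 139.9 and 147 CPM (log2 fold change -0.16 ± 0.05, adjusted p = 0.0408), without overlap. After GC adjustment the value of PROM1 was -0.09 (adjusted p = 0.106). VIM, in contrast, rose to 2769, 3064 and 3417 CPM (log2 fold change 0.33 ± 0.07, adjusted p = 0.00114) without overlap. VIM is also made by mesenchymal cells. Of the genes with a MEIS motif in the promoter window, FABP7 was thus called and TNC (0.28 ± 0.14, adjusted p = 0.247) was not, while ELAVL4 had no count. FABP7 was not called in the other MEIS conditions against their controls. A link between motif and response was not tested. CSPG4, which marks oligodendrocyte progenitors and pericytes, rose from 12.7, 14.3 and 17.0 CPM to 17.0, 22.8 and 29.0 CPM (log2 fold change 0.67 ± 0.17, adjusted p = 0.00814), and its lowest MEIS2-KO library was just above the highest control.

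Among the neuronal markers, NEFM rose from 93.0, 98.6 and 110.3 CPM to 117, 138 and 148 CPM (log2 fold change 0.44 ± 0.07, adjusted p = 0.000123) and NEFL from 92.3, 95.2 and 100.3 CPM to 113, 114 and 133 CPM (log2 fold change 0.31 ± 0.05, adjusted p = 0.000273). GAP43 was at 12.7, 15.3 and 15.9 CPM and 18.2, 19.96 and 24.2 CPM (log2 fold change 0.45 ± 0.11, adjusted p = 0.00665). In these 3 genes all MEIS2-KO libraries were above all controls. SYN1, a vesicle protein, rose from 3.26, 4.48 and 4.98 CPM to 4.62, 5.61 and 6.05 CPM (log2 fold change 0.30 ± 0.09, adjusted p = 0.0272) with overlap, and after GC adjustment its value was 0.18 (adjusted p = 0.441). DCX fell from 0.524, 0.857 and 1.49 CPM to 0.180, 0.402 and 0.706 CPM (log2 fold change -0.997 ± 0.32, adjusted p = 0.0383), on 10 to 31 and 4 to 14 counts per library and with overlap. SYP fell to 1.21, 1.51 and 1.88 CPM (log2 fold change -0.50 ± 0.12, adjusted p = 0.00855), below all controls. MAP2 did not overlap with the controls but was not called (-0.18 ± 0.07, adjusted p = 0.0946). Without the 3 libraries that stood apart, the count was 16, with 15.1% of all tested genes. These libraries belong to neither group compared. They enter through the shared spread, the scaling and the filter, and 19577 genes were tested without them. After GC adjustment the count was 13, with 12.7% of all genes.

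Set against each other, MEIS1-KO and MEIS2-KO had no called marker, where 0.0152% of all tested genes were called by edgeR. At an unadjusted p under 0.05 there were 6 of 35 markers and 5.68% of all tested genes, and DESeq2 called 0 as well. SYP had -0.57 ± 0.12 in MEIS1-KO and -0.50 ± 0.12 in MEIS2-KO against the shared ctrl-KO libraries, and the difference between the knockouts was -0.07 ± 0.13. For NEFM that difference was -0.25 ± 0.07, adjusted p = 0.855, and for PTPRZ1 0.18 ± 0.07, adjusted p = 0.855.

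**Figure D4:**
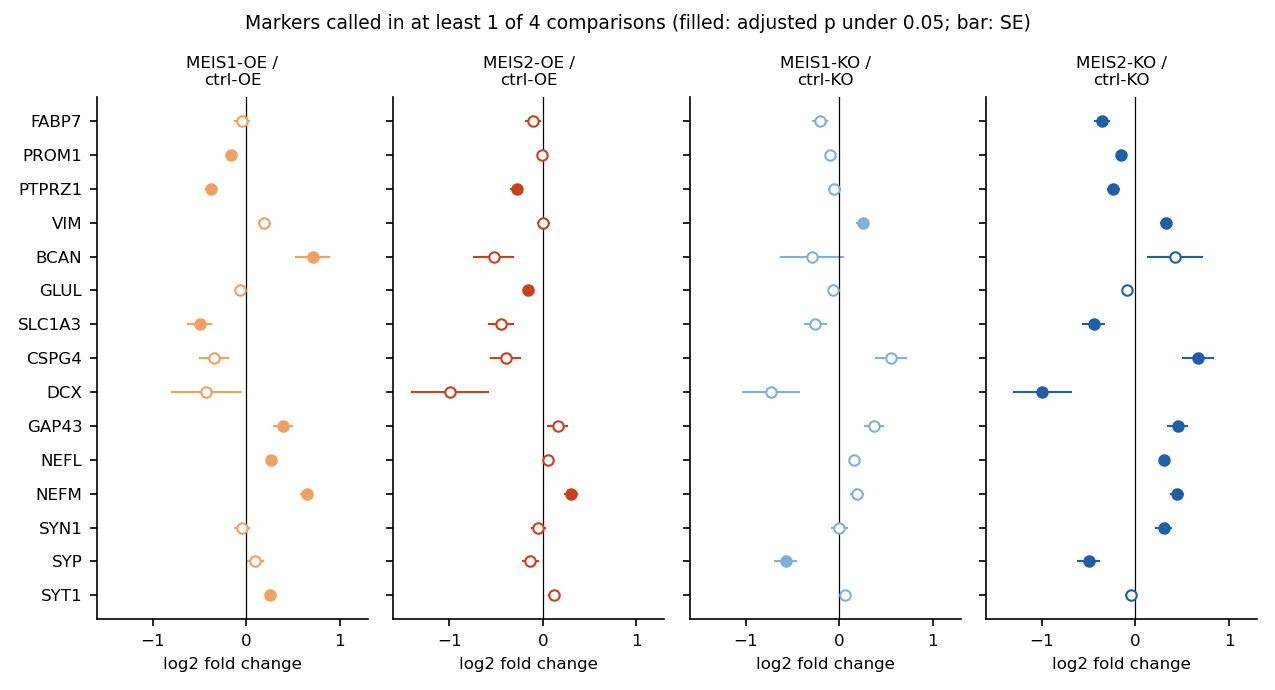
Log2 fold change with standard error of the 15 markers called in at least 1 of 4 comparisons, each against its own control, filled where called. NEFM lies above 0 in all 4 panels and PTPRZ1 below, the latter at only -0.05 ± 0.07 in MEIS1-KO. DCX has the lowest value of MEIS2-KO.

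The effect of overexpression was then compared with that of knockout for each gene, as overexpression change minus knockout change, to find markers whose response depends on the direction in which a MEIS gene was moved. For MEIS1 4 markers were called, 2 positive and 2 negative, where 3.48% of all tested genes were called, 2.35% positive and 1.14% negative. SYP had a difference of 0.67 ± 0.15 (adjusted p = 0.00498), being 0.10 ± 0.09 in MEIS1-OE and lower after MEIS1-KO. NEFM differed by 0.45 ± 0.10 (adjusted p = 0.00705), with a higher level in MEIS1-OE and 0.19 ± 0.07 in MEIS1-KO. PTPRZ1 differed by -0.33 ± 0.10 (adjusted p = 0.0468), with -0.38 ± 0.07 in MEIS1-OE and -0.05 ± 0.07 in MEIS1-KO, where it was not called. CSPG4 differed by -0.90 ± 0.23 (adjusted p = 0.0188), with -0.35 ± 0.16 in MEIS1-OE and 0.55 ± 0.17 in MEIS1-KO. Without the 3 libraries that stood apart the value for CSPG4 was -0.51 (adjusted p = 0.085), and with only the groups compared in the fit PTPRZ1 had an adjusted p of 0.0688.

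For MEIS2 CSPG4 alone was called, at -1.07 ± 0.23 (adjusted p = 0.00533), where 2.57% of all tested genes were called, 1.39% positive and 1.18% negative. It was at -0.40 ± 0.16 in MEIS2-OE and 0.67 ± 0.17 in MEIS2-KO. NEFM, which rose in both MEIS2 conditions, had a difference of -0.15 ± 0.10 (adjusted p = 0.533), and PTPRZ1, which fell in both, -0.04 ± 0.10 (adjusted p = 0.868). NEFM and PTPRZ1 thus kept the same direction when MEIS2 was raised and when it was reduced, and no difference between these effects was detected. Without the 3 libraries that stood apart 2 markers and 4.67% of all tested genes were called, and after GC adjustment 4 markers and 4.64% of all genes.

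Transcript GC content moved with several of these results, and its part in them was not tested beyond the adjusted fit. The tested markers ranged from 37.6% GC (AQP4) to 63.5% (CSPG4), with a median of 52.5%. The median slope of the libraries on GC was -0.08 log2 units per 10 points in ctrl-KO, -0.007 in MEIS2-KO, 0.04 in ctrl-OE and 0.12 in MEIS1-OE. The 7 markers higher in ctrl-OE than in ctrl-KO had a median GC of 58.2%, and the 17 lower ones 42.9%. In MEIS2-KO the medians were 53.5% for the higher and 42.4% for the lower markers. TUBB3, with 62.2% GC, moved with the slope: the MEIS1-OE library with the lowest slope had the lowest TUBB3 level, and ctrl-OE replicate 6, with the highest slope of all, had the highest TUBB3 level of its condition. Among the called markers the GC-adjusted value kept the sign of the unadjusted one. NEFM had 0.62 in MEIS1-OE and 0.42 in MEIS2-KO after adjustment, and PTPRZ1 -0.36 and -0.16.

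**Figure D5:**
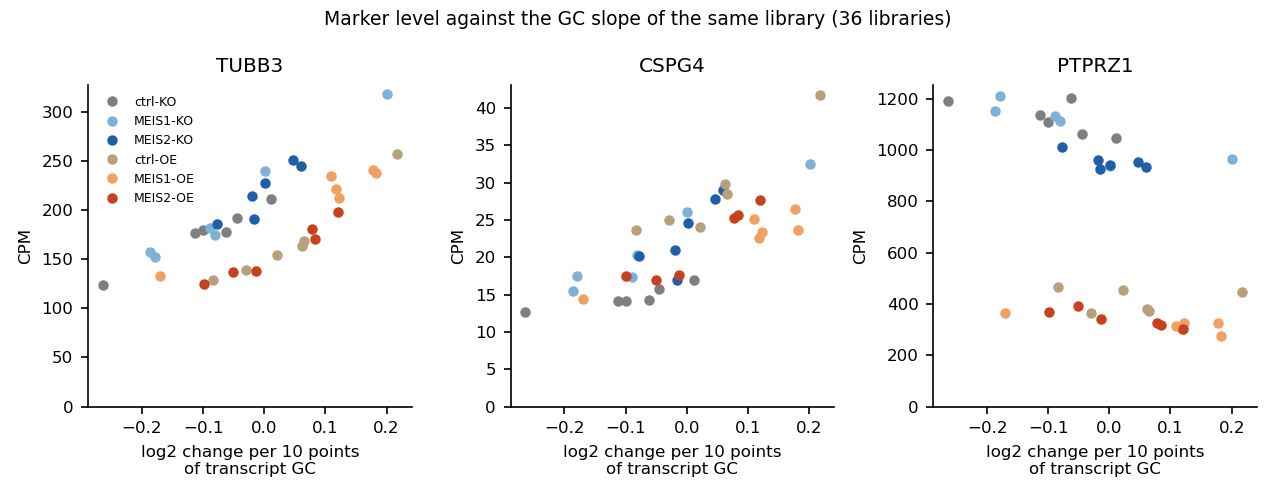
CPM of TUBB3, CSPG4 and PTPRZ1 against the slope of the same library on transcript GC content (log2 change per 10 percentage points), 36 libraries coloured by condition. Within each condition TUBB3 and CSPG4 tend to be higher in libraries with a higher slope, and PTPRZ1 separates the KO from the OE libraries at every slope.

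Further genes of the same lineages were read from lists. In ctrl-OE against ctrl-KO, 2 rose and 7 fell of 16 tested stem cell genes (median -0.55). Of 16 tested astrocyte genes 6 rose and 5 fell (median 0.15), and of 11 oligodendrocyte genes 4 rose and 2 fell (median 0.42). Of 27 neuronal genes 6 rose and 9 fell (median 0.19), where 27.5% of all tested genes rose and 23.9% fell (median 0.05). Beside the counts of these lists in the MEIS conditions, 4.04% of all tested genes rose and 5.98% fell in MEIS2-KO, and 1.03% rose and 0.432% fell in MEIS1-KO. In MEIS1-OE 5.52% rose and 3.58% fell, and in MEIS2-OE 1.07% rose and 0.279% fell. Of the transcription factors and signalling genes of neural stem cells, 0 rose and 4 fell of 16 tested (median -0.14) in MEIS2-KO, 0 rose and 1 fell of 16 tested (median -0.08) in MEIS1-KO, 0 rose and 2 fell of 16 tested (median -0.10) in MEIS1-OE and 0 rose and 1 fell of 16 tested (median -0.16) in MEIS2-OE, beside medians of all tested genes of -0.01, 0.0033, -0.0013 and -0.01 in the same order. PAX6, a regulator of radial glia, fell from 34.6, 37.7 and 38.4 CPM in ctrl-KO to 22.6, 28.4 and 32.8 CPM in MEIS1-KO (log2 fold change -0.42 ± 0.10, adjusted p = 0.0178) and 23.0, 25.1 and 32.3 CPM in MEIS2-KO (log2 fold change -0.52 ± 0.10, adjusted p = 0.000686), without overlap. SOX1 fell in MEIS2-KO (-0.33 ± 0.09) and in MEIS1-OE (-0.31 ± 0.10). HES5, a target of Notch signalling, was at 0.0465 to 1.64 CPM in ctrl-OE and at 0 to 0.101 CPM in MEIS1-OE, on 0 to 2 counts per library (log2 fold change -2.96 ± 0.68, adjusted p = 0.00236). In MEIS2-OE it was at 0 to 0.191 CPM (log2 fold change -2.79 ± 0.66, adjusted p = 0.0153). The libraries of HES5 overlapped with those of ctrl-OE in both conditions, and the same widely spread ctrl-OE libraries serve both values.

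Of the other astrocyte genes, 2 rose and 3 fell of 16 tested (median -0.11) in MEIS1-OE, and 0 rose and 1 fell (median -0.16) in MEIS2-OE. In MEIS1-KO 1 rose and 0 fell of 16 tested (median 0.08), and in MEIS2-KO 3 rose and 0 fell (median -0.0039). The called shares were 31.2% in MEIS1-OE and 18.8% in MEIS2-KO, beside 9.10% and 10.0% of all tested genes. They were 6.25% in MEIS2-OE and in MEIS1-KO, beside 1.35% and 1.46%. AGT, the precursor of angiotensin, was at 0.279, 0.375 and 0.665 CPM in ctrl-OE and 1.42, 2.51 and 3.13 CPM in MEIS1-OE (log2 fold change 2.47 ± 0.22, adjusted p = 3.80e-11), and the growth factor receptor FGFR3 fell (-0.58 ± 0.13). In the knockouts CD44, the hyaluronan receptor, rose by 0.71 ± 0.13 in MEIS1-KO and 0.94 ± 0.13 in MEIS2-KO. APOE rose by 0.89 ± 0.24 in MEIS2-KO. Of the other oligodendrocyte genes, only MAG was called in any of the 4 MEIS conditions against its control, on 0 to 5 counts per library in MEIS1-OE.

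Of the other neuronal genes, 1 rose and 4 fell of 27 tested (median 0.02) in MEIS2-KO, and 2 rose and 1 fell (median 0.04) in MEIS1-OE. In MEIS1-KO 0 rose and 1 fell of 27 tested (median -0.0019), and none of 27 was called in MEIS2-OE. The called shares were 18.5% in MEIS2-KO, 11.1% in MEIS1-OE and 3.7% in MEIS1-KO, beside 10.0%, 9.10% and 1.46% of all tested genes. SOX4, SOX11 and DPYSL3, genes of newborn neurons, fell in MEIS2-KO, with log2 fold changes of -0.32 ± 0.08, -0.28 ± 0.07 and -0.52 ± 0.10, and the ubiquitin hydrolase UCHL1 rose by 0.23 ± 0.05. STMN4, a relative of STMN2, rose from 0.0938, 0.489 and 0.706 CPM in ctrl-OE to 0.906, 1.28 and 1.59 CPM in MEIS1-OE (log2 fold change 1.48 ± 0.28, adjusted p = 0.000202).

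Markers of other cell types were read for the same libraries. Of 8 mesenchymal markers 3 rose in MEIS2-KO, 2 in MEIS1-KO, 2 in MEIS1-OE and none in MEIS2-OE. Of all tested genes 4.04%, 1.03%, 5.52% and 1.07% were called higher in the same order. The summed level of the mesenchymal markers was 891 to 1122 CPM in ctrl-KO, 1011 to 1382 CPM in MEIS1-KO and 1002 to 1278 CPM in MEIS2-KO. It was 542 to 733 CPM in ctrl-OE, 543 to 689 CPM in MEIS1-OE and 553 to 662 CPM in MEIS2-OE. COL1A1 was at 24.0, 37.9 and 46.2 CPM in ctrl-KO and 53.4, 77.7 and 95.7 CPM in MEIS2-KO, and ACTA2 rose by 0.49 ± 0.05, beside the rise of VIM and CSPG4. DCN, which marks fibroblasts, had 2 to 8 counts per library in MEIS2-KO. Of 6 endothelial markers KDR and CDH5 rose in MEIS2-KO, while CLDN5 had 0 to 2 counts. In MEIS2-OE 1 endothelial marker rose. The endothelial sum was 169.8 to 185 CPM in ctrl-KO and 205 to 253 CPM in MEIS2-KO. Microglial markers summed to 0.890 to 1.504 CPM in ctrl-KO and 1.39 to 2.08 CPM in MEIS2-KO, and to 1.70 to 2.32 CPM in ctrl-OE and 1.93 to 3.51 CPM in MEIS1-OE, which overlapped, with TYROBP called in MEIS1-OE (1.14 ± 0.21) and MEIS2-KO (1.76 ± 0.35) and PTPRC at 0 to 2 counts. Neural crest markers summed to 33.1 to 39.4 CPM in ctrl-KO and 34.99 to 38.6 CPM in MEIS2-KO. Of 6 tested neural crest markers 1 rose in MEIS2-KO and 1 in MEIS1-OE. Of 4 tested pluripotency genes none was called in a MEIS condition against its own control. LIN28A, named after its values were seen, was at 441 to 535 CPM and POU5F1 at 0 to 0.0966 CPM in ctrl-KO. The part of these cells or genes in the marker results was not tested.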

How the data were processed

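The deposited table holds raw counts of read pairs per gene for 36 libraries, which the authors made from polyA RNA (stranded kit, paired reads of 100 bases) aligned to hg19 with STAR and counted with HTSeq. The labels name STAR 2.4.2a in the design text and 2.7.0a, with Trimmomatic 0.39, in the submitters' processing notes. The annotation and the strand setting of the counting are not given in the sources used here.

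Genes with at least 10 counts over all libraries (19689 of 28516) were fitted in 1 model of 6 groups with edgeR 4.0.16 (R 4.3.3): TMM scaling, quasi-likelihood tests, Benjamini-Hochberg adjustment over all tested genes within each of 9 comparisons. The MEIS contrasts are differences of differences. Standard errors were taken from the F statistic. The depth, 15429985 to 22940493 counts per library, limits genes under a few counts. On simulated data of the MEIS1-OE comparison, 99 of 100 genes changed 1.5-fold were recovered. The changed genes were drawn from well-counted genes only. All genes had the same spread, without a GC trend or libraries that stood apart. Recovery of smaller changes and of markers with few counts was thus not measured.

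The markers and the other lists were chosen with earlier results of these data known. Values are given in full for markers called in a MEIS comparison or contrast, the 3 most positive and 3 most negative called between the controls, and the highest and lowest of each class per kb. Of each other list, at most 4 called genes per comparison are named, besides defining markers near 0. Some genes of these lists are not reported here. GC content and gene overlaps came from the reference annotation, matched by symbol. Alternatives were RLE scaling, filterByExpr, no filter, only the groups compared, a replicate block and DESeq2 1.42.0. GC-adjusted offsets and leaving out 3 libraries were added after the data had been seen.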

Additional observations from a re-analysis of the deposited data

Results flagged for a closer look

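In 21 of 210 combinations of a marker and a condition, 1 library lay far from the other 5 by Dixon's criterion, which chance alone meets in about 1 of 20 groups of continuous values. That rate does not hold for genes near 0, such as MOG, where 1 count beside libraries at 0 is always flagged. The 21 can thus not be set against it. Several of the flagged values fall in libraries named in the report. In ctrl-OE replicate 6, NES was at 1178 CPM (842 to 941 in the other 5 libraries), MSI1 at 104 CPM (67.8 to 79.3), CSPG4 at 41.7 CPM (23.6 to 29.8) and TUBB3 at 257 CPM (128 to 169). In MEIS1-OE replicate 3, TUBB3 was at 133 CPM (212 to 240.3 in the others), ELAVL3 at 56.9 CPM (71.2 to 78.6), CNP at 141 CPM (168 to 184) and CSPG4 at 14.4 CPM (22.6 to 26.5). The first of these libraries was thus high and the second low in CSPG4 and TUBB3, the former with the highest slope on GC content of all libraries and the latter with the lowest of its condition.

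MEIS2-OE replicate 1 held SLC1A3 at 9.06 CPM (5.41 to 6.65 in the others), MAP2 at 286 CPM (245 to 258), GFAP at 0.3896 CPM (0.179 to 0.238) and STMN2 at 0.243 CPM (0.0894 to 0.108). Single markers stood apart in 5 further libraries with at least a few counts: MAP2 at 569 CPM in MEIS2-KO replicate 1 (661 to 705), DCX at 0.932 CPM in MEIS1-KO replicate 1 (0.366 to 0.536), SYN1 at 3.26 CPM in ctrl-KO replicate 2 (4.40 to 4.98), STMN2 at 0.347 CPM in ctrl-KO replicate 1 (0 to 0.0960) and GFAP at 0.177 CPM in ctrl-KO replicate 3 (0 to 0.0579). ALDH1L1 at 0.186 CPM in ctrl-OE replicate 5 (0 to 0.0468) rests on a handful of counts. MOG was above 0 in only 1 library each of MEIS1-KO (replicate 1, 0.0622 CPM), MEIS1-OE (replicate 6, 0.0450 CPM) and MEIS2-OE (replicate 5, 0.0447 CPM), on 1 count.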

How the results depend on the processing

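No marker that was called changed direction under any of the 8 alternatives, and the counts of markers called in ctrl-OE against ctrl-KO, MEIS2-KO, the MEIS1 contrast and MEIS1-KO against MEIS2-KO stayed within 1.5 times of the reported ones. In MEIS1-OE the count rose from 8 to 13 without the 3 libraries that stood apart. In MEIS2-OE it went from 3 to 1 with only the groups compared and to 5 with GC-adjusted offsets. In MEIS1-KO it went from 2 to 5 with the replicate block and with GC-adjusted offsets, to 4 with DESeq2, and to 1 with only the groups compared and without the 3 libraries. In the MEIS2 contrast it went from 1 to 2 with RLE scaling, filterByExpr and without the 3 libraries, to 3 with DESeq2 and only the groups compared, and to 4 with the replicate block and GC-adjusted offsets. In MEIS1-OE against MEIS2-OE it went from 4 to 7 with the replicate block and GC-adjusted offsets, and to 9 without the 3 libraries. The share of all tested genes that was called moved as well, as given in the report for the GC adjustment and the 3 libraries. The causes of these changes were not tested. Calls lost beyond those given in the report were GLUL in MEIS2-OE (adjusted p by edgeR's test = 0.0557 with RLE scaling and 0.0572 with no filter) and PROM1 in MEIS2-KO (0.0708 with RLE scaling).

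Deviations from the group means correlated at 0.0993 on average between libraries that share a replicate number and at -0.0210 between the others, 46 of 90 pairs exceeded 0.1, and 14 of 36 libraries correlated best with their own number. With 6 numbers to choose from, libraries of the same number were thus more alike on average than others, and the reason was not tested. The main fit had no replicate term, as in the study's model, and the replicate block was fitted as an alternative. The replicate block lost no call of a named marker and added 12. Markers under a few counts per library (MOG, GFAP, ALDH1L1, STMN2, SLC1A2, MBP) could show only large changes at this depth.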
